A study of Mus musculus with 29 samples.

Results

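The 10 genes of mitochondrial fatty acid beta-oxidation followed here in mouse hearts were Cpt2, Acadvl, Acadl, Acadm, Acads, Hadha, Hadhb, Hadh, Acaa2 and Etfdh. They were taken by symbol as 10 of the 20411 genes in the count table, and all 10 were among the 12928 genes with enough counts to be tested. Every heart came from a wildtype BALB/c mouse given an adeno-associated virus whose Tbg promoter is active in hepatocytes, and the virus carried either REV-ERBα, a transcriptional repressor of the circadian clock, or green fluorescent protein (GFP). After 10 days the mice received C26 colon carcinoma cells under the skin, a model of cancer cachexia, or saline (PBS). The groups were PBS_GFP (GFP vector, no tumour, 4 hearts), PBS_REVERBa (REV-ERBα vector, no tumour, 5 hearts), C26_GFP (GFP vector and tumour, 10 hearts) and C26_REVERBa (REV-ERBα vector and tumour, 10 hearts). Each of the 29 libraries was total RNA from the heart of a separate animal, so no group is free of vector. The labels give no age, sex or hour of collection.

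Beta-oxidation shortens a fatty acid in the mitochondrial matrix by repeated rounds of dehydrogenation, hydration, a second dehydrogenation and thiolytic cleavage. Cpt2 turns the imported acylcarnitine back into acyl-CoA. Acadvl, Acadl, Acadm and Acads are the acyl-CoA dehydrogenases of very long, long, medium and short chains. Hadha and Hadhb encode the subunits of the trifunctional protein of the inner membrane, which carries out the remaining steps on long chains, while Hadh and Acaa2 are the matrix dehydrogenase and thiolase that act on shorter ones. Etfdh passes the electrons from the acyl-CoA dehydrogenases to ubiquinone. The adult heart draws much of its energy from this pathway, and nuclear receptors of the PPAR and ERR families are known activators of its genes.

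The genes lie at separate places in the genome (mm10) with a single exception. Hadha, encoded on the minus strand of chromosome 5 (30118304 to 30154980), and Hadhb, on the plus strand (30155253 to 30184593), stand head to head with 272 bases between their start sites. Acads is also on chromosome 5 (115110299 to 115119346), Acadm (153922353 to 153944643), Hadh (131233420 to 131272101) and Etfdh (79603788 to 79628767) are on chromosome 3, Cpt2 is on chromosome 4 (107903982 to 107923589), Acadvl on chromosome 11 (70010183 to 70015428) and Acadl on chromosome 1 (66830839 to 66863309). The interval of Hadha also holds Gareml on the other strand, whose level averaged 0.652 CPM (counts scaled to a common library size).

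Promoter sequence from RefSeq (GRCm38.p6) was at hand for 9 of the 10 genes, Acaa2 being the one without an entry, and the 250 bases before each start site were searched on both strands. The sequences of 3 are shown because they hold the stretch shared by the Hadha and Hadhb pair and both matches to AGGTCA, the half-site read by REV-ERBα and by PPAR and ERR receptors. Capitals mark AGGTCA or its reverse complement, and GGGCGG, a GC box. All are written 5′ to 3′ on the strand of the gene, and the Hadhb stretch is limited to bases outside annotated exons (GENCODE vM21).
Hadhb, chr5:30155163-30155247, plus strand: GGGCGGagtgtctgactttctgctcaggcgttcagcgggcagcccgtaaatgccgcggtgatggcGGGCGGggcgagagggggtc
Acadvl, chr11:70015429-70015678, minus strand: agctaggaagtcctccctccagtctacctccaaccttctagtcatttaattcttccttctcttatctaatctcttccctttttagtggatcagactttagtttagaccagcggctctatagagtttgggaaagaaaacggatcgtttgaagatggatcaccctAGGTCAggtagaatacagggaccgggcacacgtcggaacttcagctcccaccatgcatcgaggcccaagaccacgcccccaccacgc
Acadm, chr3:153944644-153944893, minus strand: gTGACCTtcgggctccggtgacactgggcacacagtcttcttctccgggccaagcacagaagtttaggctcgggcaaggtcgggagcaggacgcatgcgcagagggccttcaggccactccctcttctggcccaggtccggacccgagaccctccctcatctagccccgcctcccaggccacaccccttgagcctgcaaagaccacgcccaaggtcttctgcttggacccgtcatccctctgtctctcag

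AGGTCA occurred in 2 of the 9 windows and in 14% of 32851 promoters of the same length. The match in Acadvl is preceded by a T, which makes TAGGTCA, present in 2.23% of all promoters, and the match in Acadm is part of AAGGTCA on the opposite strand, present in 4.08%; both longer words overlap the shorter one. The direct repeat of AGGTCA with any base between the copies (DR1) was in none of the 9 and in 0.0335% of all, and the E-box CACGTG was in none of the 9 and in 6.02% of all. GGGCGG was in 6 of the 9 (Cpt2, Acadl, Acads, Hadha, Hadhb and Hadh) and in 32.7% of all. The G and C content of those 6 windows was 56.8% (Cpt2) to 68% (Acadl), against a median of 52.4% over all promoters. A share among promoters of similar content was not taken. The match counted for Hadha is the same 6 bases as the first in the Hadhb stretch, read on the other strand. These are matches of letters in a short window and say nothing of binding.

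The libraries held 3207497 to 16853646 counts, and the smallest count of any of the 10 genes in any library was 621 (Acads). Of 5 libraries above 10000000 counts, 2 were PBS_GFP and 3 C26_GFP. Cardiomyocyte markers were abundant everywhere: all 10 had counts in every library and summed to 45200 CPM or more, while 8 skeletal muscle markers summed to at most 2.9 CPM and Myh4 was at 0 in all 4 groups. Atrial markers varied between single libraries, from 59.2 to 4680 CPM in sum. Nr1d1, which encodes REV-ERBα, differed in the heart between vectors by 0.03 ± 0.24 (log2 fold change ± SE, edgeR adjusted p = 1) in tumour-free mice and by 0.28 ± 0.16 (adjusted p = 0.287) in tumour-bearing mice; the vector's promoter is not a cardiac one, so these values do not check it.

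Per length of transcript, all 10 genes were among the most abundant of the heart. Acadm was highest, at 461 ± 39.1 CPM per kilobase of counted length (SD over 29 libraries), and ranked 84 of 12928 genes. Hadh (366), Acadl (362), Acaa2 (338), Hadha (288), Hadhb (226), Cpt2 (202), Etfdh (174), Acadvl (114) and Acads (107 ± 8.9, rank 560) followed on the same scale. Neighbours in that order were not all set apart: Hadh was above Acadl in 15 of 29 libraries, and Acadvl above Acads in 21 of 29. For the other neighbours the order held in 25 to 29 of the 29 libraries. The count ratio of Hadha to Hadhb, the subunits of the trifunctional protein, had a coefficient of variation of 5.55% over all libraries. This pair was not the most closely correlated of the 10 genes. Its correlation of log2 CPM over 29 libraries was 0.885, against 0.898 for Acadl with Hadhb.

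**Figure D1:**
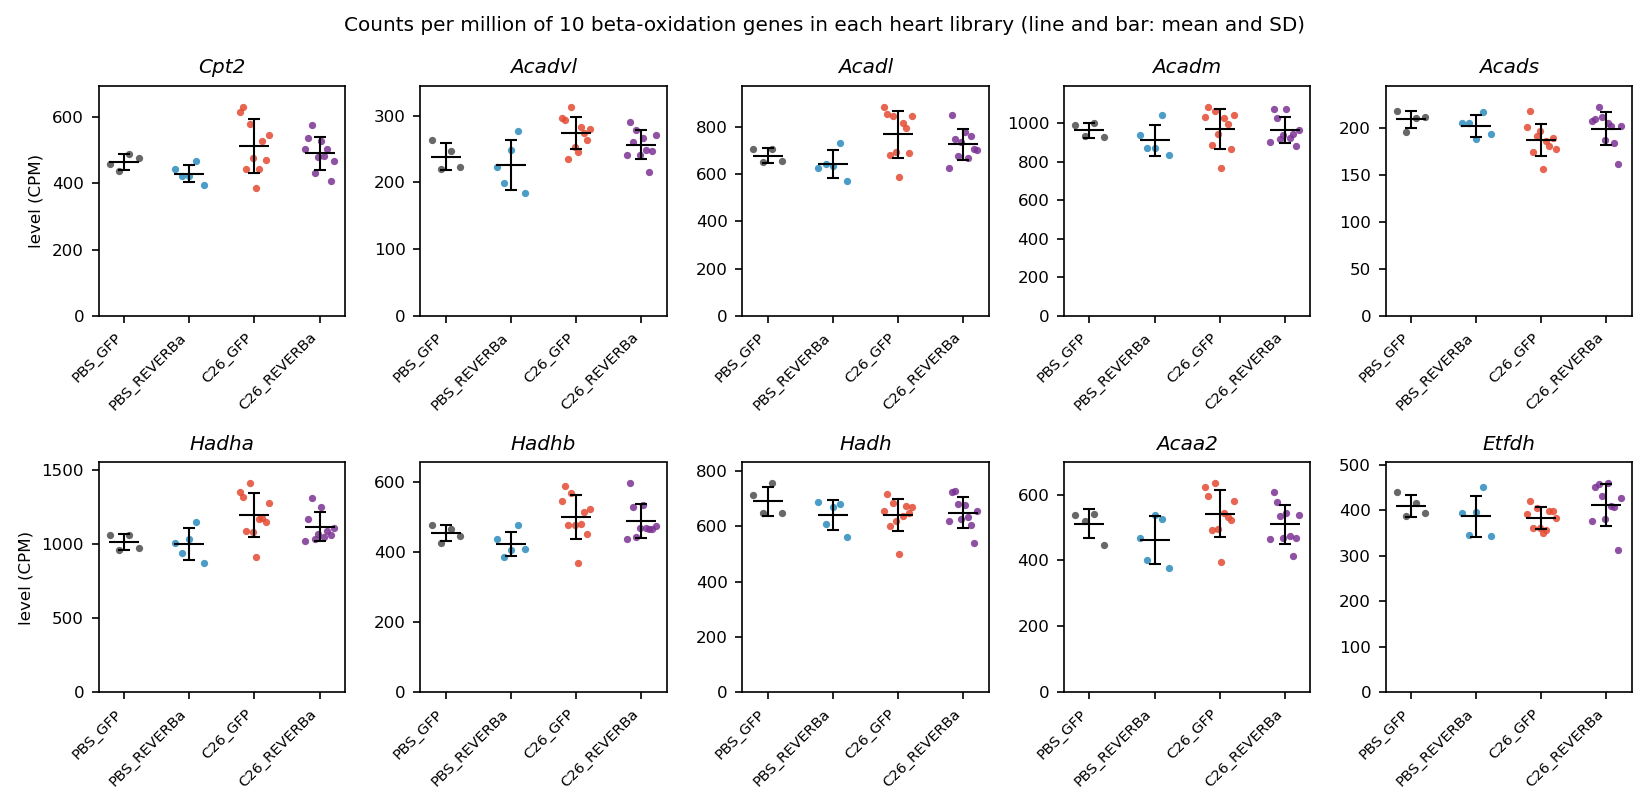
Level of each of the 10 genes in every heart (CPM scaled by TMM factors, vertical axis from 0) by group, with points for single animals and lines for the mean and SD. The groups overlap for every gene, and Hadha in C26_GFP reaches from 914.8 to 1409 CPM against 961.2 to 1061 in PBS_GFP.

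The first comparison, C26_GFP against PBS_GFP hearts, asks what a tumour does to these genes under the control vector. One of the 10, Hadha, rose, by 0.24 ± 0.09 on the log2 scale or 1.18-fold (edgeR quasi-likelihood test, adjusted p = 0.0442, 95% interval 1.04 to 1.33-fold). Over all tested genes 28.2% passed in either direction, 14.2% higher and 14% lower, so 1 of 10 is no more than that background. The median log2 difference of the 10 was 0.109 beside -2.85e-05 over all genes. No gene of the 10 had groups that did not overlap, whereas 5.65% of all genes were higher and 6.31% lower without overlap.

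Hadha stood at 1060, 961, 1061 and 972 CPM in the PBS_GFP hearts, and at a lowest of 915, a median of 1171 and a highest of 1409 CPM in the 10 C26_GFP hearts. Of the 10 tumour-bearing hearts, 9 lay above every PBS_GFP heart, and replicate 6 lay below all of them. Its call was narrow. It was lost on leaving out any 1 of 9 libraries, namely PBS_GFP replicate 1, 2, 3 or 4 or C26_GFP replicate 1, 2, 4, 8 or 10 (adjusted p 0.0512 to 0.128, log2 difference 0.21 to 0.26), and without C26_GFP replicate 6 the difference was 0.27 ± 0.08 (adjusted p = 0.00894). Hadhb, its partner subunit, was at 478, 427, 468 and 447 CPM in PBS_GFP and between 370 and 591 CPM, median 499, in C26_GFP. In C26_GFP, 8 hearts were above all PBS_GFP hearts and 1 was below, and the difference of 0.14 ± 0.09 did not pass (adjusted p = 0.254).

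Among the acyl-CoA dehydrogenases, the long-chain members lay on the higher side and the short-chain member on the lower. Acadvl was at 264, 220, 246.5 and 224 CPM in PBS_GFP and 236 to 313, median 277, in C26_GFP. Acadl was at 705, 649.5, 704 and 656 CPM in PBS_GFP and 587 to 885, median 807, in C26_GFP. For each of them 6 C26_GFP hearts exceeded every PBS_GFP heart, and neither difference passed: 0.20 ± 0.09 for Acadvl (adjusted p = 0.0875) and 0.18 ± 0.09 for Acadl (adjusted p = 0.125). Acadm, the medium-chain enzyme, was at 991, 930, 999 and 926 CPM in PBS_GFP and 766 to 1083, median 1008, in C26_GFP. With 5 C26_GFP hearts above and 3 below the PBS_GFP range, its difference was 0.01 ± 0.08 (adjusted p = 0.938, 95% interval 0.905 to 1.12-fold). Acads was at 218.5, 197, 211.5 and 212 CPM in PBS_GFP and 157 to 219, median 189, in C26_GFP. Of the C26_GFP hearts, 7 were below every PBS_GFP heart and 1 was above, for a difference of -0.16 ± 0.07 (adjusted p = 0.0892). Single libraries decided some of these calls: Acadl passed without C26_GFP replicate 6 (0.22, adjusted p = 0.0338), Acadvl without C26_GFP replicate 3 (0.23, adjusted p = 0.049) and Acads without C26_GFP replicate 2 (-0.18, adjusted p = 0.0397).

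Of the other 4 genes none passed. Cpt2, at the entry to the matrix, ranged from 436 to 489.5 CPM in PBS_GFP and from 386 to 630 in C26_GFP, with a difference of 0.14 ± 0.10 (adjusted p = 0.299). The thiolase Acaa2 ranged from 448 to 542 CPM and from 396 to 634, a difference of 0.08 ± 0.11 (adjusted p = 0.619). Hadh ranged from 646 to 755 CPM in PBS_GFP and from 501 to 715 in C26_GFP, a difference of -0.11 ± 0.08 (adjusted p = 0.317), and Etfdh from 386 to 440 and from 350 to 421 CPM, a difference of -0.10 ± 0.08 (adjusted p = 0.381). No C26_GFP heart exceeded the PBS_GFP range for Hadh or Etfdh, while 4 and 5 hearts lay below it. Over the 10 genes the 95% intervals reached from 0.812-fold (Acads) to 1.33-fold (Hadha), so larger changes of single genes lie outside them.

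Other values moved with this comparison. Cardiomyocyte markers summed to 59900 to 64500 CPM in PBS_GFP and 45200 to 59300 in C26_GFP, with 7 of 10 lower and 1 higher, and 3 of 6 macrophage markers rose. Of the other lists, 2 of 5 fibroblast markers (Pdgfra and Dcn) and 1 of 6 white adipocyte markers (Lipe) were higher, 2 of 6 hepatocyte markers (Alb and Apob) were lower, and of 5 endothelial markers Tie1 was higher and Kdr lower. Hepatocyte markers summed to a median of 1.73 CPM in PBS_GFP and 2.07 CPM in C26_GFP. In PBS_GFP they stood out in replicate 2 alone, with a mean log2 CPM of 3.28 against -1.4, -1.42 and -1.13 in the others. In bulk tissue fewer cells of a type and less RNA per cell cannot be told apart. With the mean level of the cardiomyocyte markers as a covariate Hadha differed by 0.15 ± 0.13 (edgeR adjusted p = 0.646) and 137 genes passed in all. That mean level itself differed by tumour, from 11.6 to 11.8 in PBS_GFP and from 11.2 to 11.6 in C26_GFP. The fit therefore cannot tell the covariate and the tumour apart, and calls lost with it have no single reading. The part of these markers in the result was not tested beyond that.

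**Figure D2:**
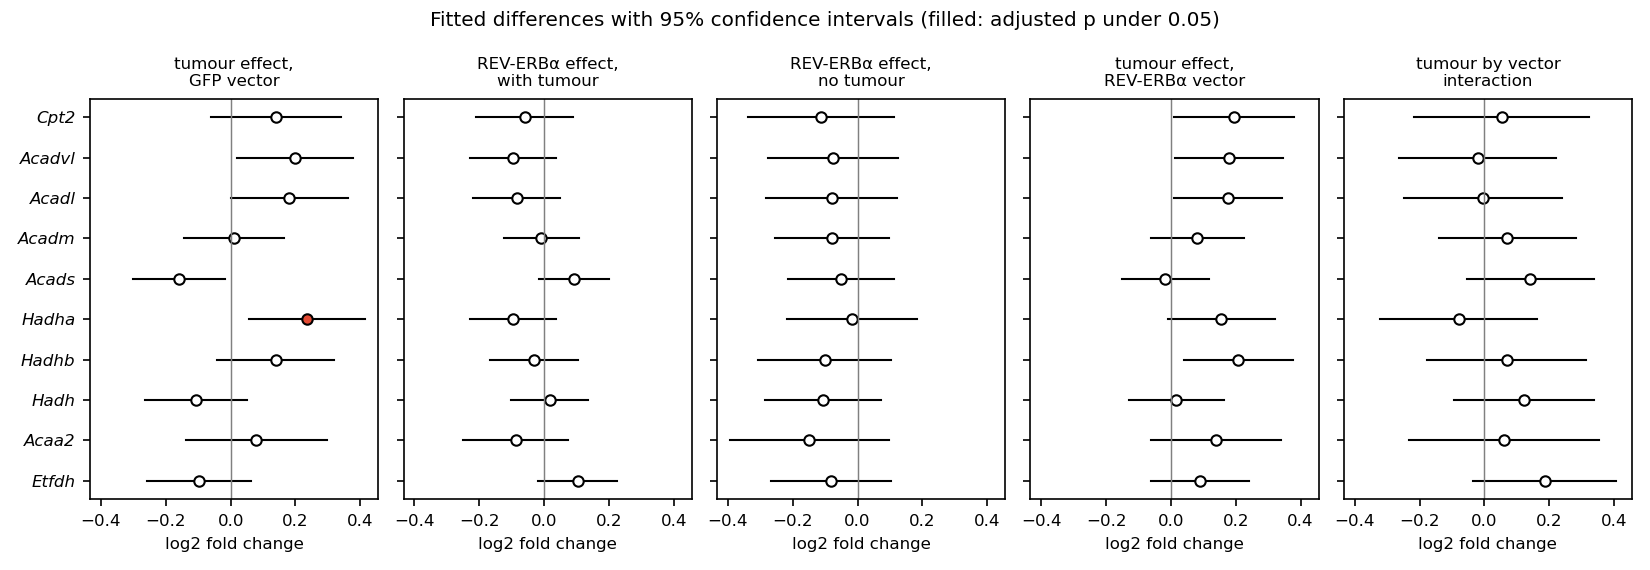
Log2 difference of each gene in the tested comparisons, with points for the estimate (filled where called) and bars for the 95% interval from the edgeR fit over 29 libraries. Only the interval of Hadha in the GFP tumour comparison belongs to a call at an adjusted p under 0.05.

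Proportions between the genes do not depend on how libraries are scaled, and some were set apart. The count ratio of Hadha to Acads was 4.85, 4.89, 5.02 and 4.59 in PBS_GFP and lay between 5.46 and 7.33, median 6.23, in C26_GFP, so the groups did not overlap. It was 4.47 to 5.49 in PBS_REVERBa and 4.87 to 6.56 in C26_REVERBa, which do overlap. Acadl to Acads was 3.1 to 3.33 in PBS_GFP and 3.51 to 4.75 in C26_GFP. Of the 45 ratios between 2 of the 10 genes, 13 did not overlap between PBS_GFP and C26_GFP, and 5 of the 13 involve Acads and 4 Hadh. Over all pairs of genes with a count in every library, 13.6% of ratios did not overlap between the same groups where the mean was at least 5 CPM (10753 genes), and 24.5% where it was at least 100 CPM (2014 genes), as it was for all 10. The 13 of 45 lie near the latter share, so such ratios are not particular to these genes. In the other 3 comparisons described here none of the 45 was without overlap. Of all pairs at 100 CPM or more, 0.0246% were without overlap by vector with a tumour. The share was 2.19% by vector without a tumour and 3.86% by tumour in REV-ERBα hearts. Those shares are low, so the lack of any among the 45 is near the background. These ratios were chosen after the values were seen and share their genes and libraries, so they are given as a description with no test.

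**Figure D3:**
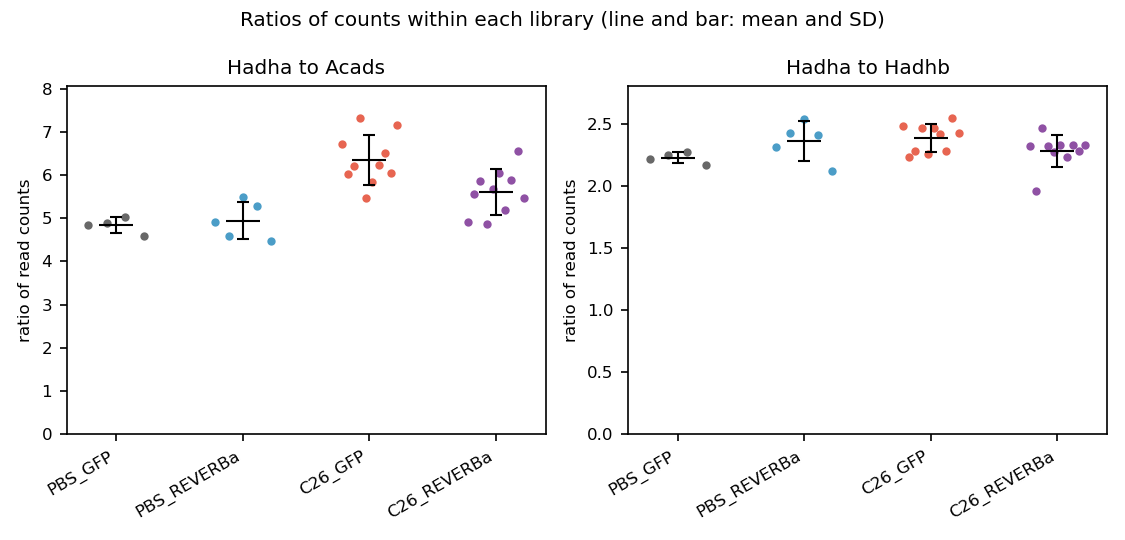
Ratio of read counts within each library, Hadha to Acads on the left and Hadha to Hadhb on the right, by group (axis from 0, points for animals, line and bar for the mean and SD). Hadha to Acads lies at 4.59 to 5.02 in PBS_GFP and 5.46 to 7.33 in C26_GFP, while Hadha to Hadhb stays between 1.96 and 2.55 in all 29 libraries.

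The REV-ERBα vector was then compared with GFP among tumour-bearing hearts, a comparison that shares the C26_GFP hearts with the first. None of the 10 genes passed with edgeR, DESeq2 or limma voom with sample weights, while 7.2% of all genes passed with edgeR (3.75% higher, 3.45% lower). None of the 10 had an unadjusted edgeR p under 0.05, against 3136 of all 12928 genes. The groups overlapped for all 10, and 0.0155% of all genes were higher and 0.00774% lower without overlap. Differences ran from -0.10 ± 0.07 for Hadha (adjusted p = 0.383) to 0.10 ± 0.06 for Etfdh (adjusted p = 0.292), with a median of -0.0457 beside 0.00396 over all genes. Hadha lay between 1020 and 1310 CPM, median 1076, in C26_REVERBa, within the C26_GFP range. Etfdh lay between 312 and 459 CPM, median 418, in C26_REVERBa, where 5 of 10 hearts exceeded every C26_GFP heart and 1 was below all of them. The intervals of the 10 genes spanned 0.841-fold (Acaa2) to 1.17-fold (Etfdh).

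Without a tumour, no difference between REV-ERBα and GFP hearts passed the edgeR test for the 10 genes or any other gene (0% called, 530 genes at an unadjusted p under 0.05, none of them among the 10). DESeq2 and limma voom with sample weights called none of the 10 either. All 10 estimates were below 0, from -0.15 ± 0.12 (Acaa2) to -0.02 ± 0.10 (Hadha), each with an adjusted p of 1, and they rest on the same 9 hearts. Acaa2 was at 537, 521, 542 and 448 CPM in PBS_GFP and at 468, 401, 538, 526 and 377 CPM in PBS_REVERBa. Of the PBS_REVERBa hearts, 2 were below the PBS_GFP range and none was above. For all 10 genes the groups overlapped, while 0.859% of all genes were higher and 0.774% lower without overlap. The intervals reached from 0.762-fold to 1.14-fold, from 5 hearts against 4.

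In mice with the REV-ERBα vector, tumour-bearing and tumour-free hearts were compared in the same way. None of the 10 passed by edgeR, DESeq2 or limma voom with sample weights, against 7.23% of all genes by edgeR (4.05% higher, 3.19% lower). An unadjusted edgeR p under 0.05 was reached by 4 of the 10 and by 3056 of all 12928 genes. The 4 were Hadhb (0.21 ± 0.08), Cpt2 (0.19 ± 0.09), Acadvl (0.18 ± 0.08) and Acadl (0.18 ± 0.08), with edgeR adjusted p-values of 0.12, 0.191, 0.175 and 0.186. Cpt2 was at 442, 421, 420, 466 and 396 CPM in the 5 PBS_REVERBa hearts and at 405 to 574.5 CPM, median 492, in C26_REVERBa. Of the 10 C26_REVERBa hearts, 8 were above every PBS_REVERBa heart. No gene of the 10 was without overlap, against 1.1% of all genes higher and 0.774% lower. Hadha differed by 0.16 ± 0.08 (adjusted p = 0.242). The median of the 10 was 0.148 beside 0.00257 over all genes, and 9 of the 10 estimates were above 0, Acads being the exception at -0.02 ± 0.07.

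No difference of the tumour effect between vectors passed for the 10 genes in the interaction test of edgeR, which called 0% of all genes (1357 at an unadjusted p under 0.05, none of them among the 10). DESeq2 called 9 genes and limma voom with sample weights 4, none of them among the 10. Etfdh had the largest difference of effects, 0.19 ± 0.11 (adjusted p = 0.536), followed by Acads at 0.14 ± 0.10 (adjusted p = 0.609). The 95% intervals ran from 0.8-fold (Hadha) to 1.33-fold (Etfdh), which leaves room for differences of that size.

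Across single hearts the 10 genes varied together. After group means were subtracted, the correlation of log2 CPM between pairs of the 10 genes had a median of 0.725 over 45 pairs (29 libraries), from 0.442 for Acadl with Acads to 0.923 for Acadm with Hadhb. A correlation above 0.5 was reached by 42 of the 45 pairs and by 2.37% of all pairs among 10765 genes with a mean of at least 5 CPM. Most of those genes had a lower level than the 10, and a share among genes of similar level was not taken. Acadm had the highest mean correlation with the other members (0.794) and Acads the lowest (0.611). All genes of a library share its scaling and its piece of tissue, and these values are a description.

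Several hearts stood at an end of their group for most of the genes. C26_GFP replicate 6 was lowest of its 10 for 9 of the 10 genes, Acadvl being the exception, while 15.6% of all tested genes were lowest there. In that heart Hadhb was at 370 CPM against 452 to 591 in the other 9, and Acadl at 587 against 680 to 885. Among tumour-free hearts PBS_REVERBa replicate 4 was highest of its 5 for 8 genes and replicate 5 lowest for 8, and PBS_GFP replicate 2 was lowest of its 4 for 7. C26_REVERBa replicate 9 was lowest of its 10 for 5 genes and below the group median for all 10. Its white adipocyte markers had a mean log2 CPM of 5.922, the highest of all 29 hearts. The mean standardized level of the 10 genes had the following correlations with marker lists within groups: r was -0.0998 for cardiomyocyte, -0.245 for atrial, -0.349 for white adipocyte and -0.161 for macrophage markers and -0.0637 for the logarithm of total counts (n = 29). Without the 2 hearts farthest from the median of each measure, r was 0.0125, -0.2, -0.164, -0.337 and -0.255 in the same order.

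**Figure D4:**
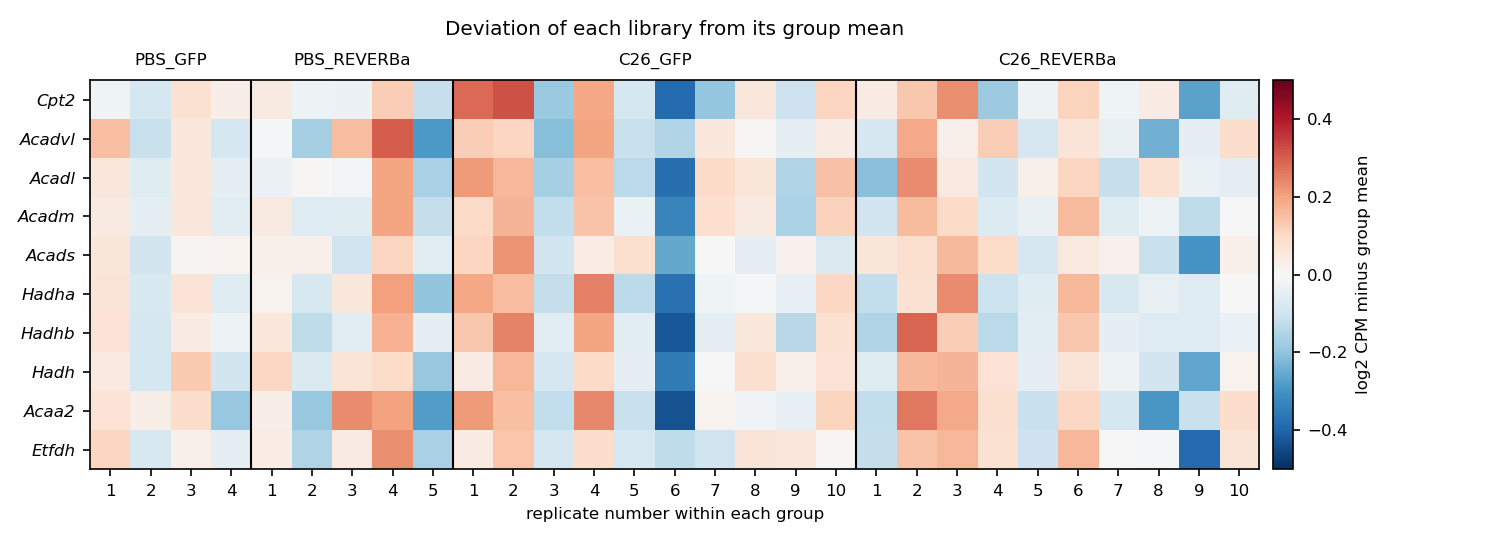
Deviation of each gene from its group mean (log2 CPM, colour scale) in each of the 29 hearts, genes in rows and hearts in columns by group. Columns tend to have 1 colour, as in C26_GFP replicate 6, the lowest of its group for 9 of the 10 genes.

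The genes outside the 10 whose levels followed theirs most closely were ranked by correlation with that mean level among 10755 genes. After subtraction of group means they were Decr1 (r = 0.901), the auxiliary enzyme for unsaturated chains, Acat1 (0.893), a mitochondrial thiolase of ketone body and isoleucine metabolism, Slc25a20 (0.879), the carnitine-acylcarnitine carrier, Plin5 (0.851), a lipid droplet protein, Ephx2 (0.846), an epoxide hydrolase, and Fabp3 (0.845), the heart fatty acid binding protein. Without group means subtracted, Hsdl2 (0.817) took the place of Ephx2. By list, 9 of 11 PPAR-responsive genes were above 0.5, 7 of 14 genes of fatty acid activation and the carnitine shuttle and 7 of 19 further mitochondrial genes. So were 4 of 15 peroxisomal genes, 2 of 23 regulators and 1 of 13 genes of branched-chain and related acyl-CoA breakdown. The share was 3.5% of the 10755 genes ranked, which were not matched for level. Some genes count in more than 1 list. Cpt1a (0.569) and Slc25a20 (0.879) are among both the PPAR-responsive and the shuttle genes, and Ehhadh (0.594) among both the PPAR-responsive and the peroxisomal genes. Ppara, which encodes a receptor that activates these genes, ran the other way (r = -0.653, Spearman's rho -0.561, and r = -0.529 without C26_GFP replicates 6 and 2, the hearts farthest from the median). It was not the lowest of the 23 regulators, which ran from -0.666 to 0.802 with a median of 0.0475. Of the other PPAR receptors, Ppard was at -0.433 and Pparg at 0.0204.

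Lists of related genes were counted in the same way in the GFP tumour comparison, where 28.2% of all genes passed. Of 14 genes of activation and the carnitine shuttle 2 rose and 1 fell, the fatty acid transporters Slc27a1 (0.93 ± 0.16, adjusted p = 9.55e-05) and Cd36 (0.53 ± 0.17, adjusted p = 0.017) on one side and the acyl-CoA synthetase Acsl6 (-0.48 ± 0.18, adjusted p = 0.0417) on the other. Of 19 further mitochondrial genes 6 rose and 3 fell, and the isomerases Ech1 (0.57 ± 0.12), Eci1 (0.52 ± 0.13) and Eci2 (0.50 ± 0.11), which prepare double bonds for the cycle, rose. Of 15 peroxisomal genes 3 rose and 2 fell, with the racemase Amacr at -0.40 ± 0.08 (adjusted p = 0.000711) and the thiolase Scp2 at 0.23 ± 0.07 (adjusted p = 0.00893). Of 11 PPAR-responsive genes 5 rose and none fell, among them the mitochondrial carrier Ucp2 (0.81 ± 0.19, adjusted p = 0.00162) and the thioesterase Acot1 (2.11 ± 0.43, adjusted p = 0.000607), whose reads can be confused with those of its near-identical copy Acot2. Of 23 regulators 5 rose and 5 fell, and of 13 genes of branched-chain and related acyl-CoA breakdown 2 rose and 1 fell. The counts for activation and the shuttle, for the peroxisome and for branched-chain breakdown lie near the share over all genes. Median log2 differences were 0.129, 0.125, -0.11, 0.753, -0.000546 and -0.0805 in the same order of lists. Cd36 lost its call without PBS_GFP replicate 2 (adjusted p = 0.0602) or without the libraries above 10000000 counts (adjusted p = 0.0922), and Acsl6 lost it without any 1 of 9 libraries (PBS_GFP replicates 1, 2 and 4 and C26_GFP replicates 1, 3, 4, 5, 7 and 10, adjusted p up to 0.14). With the cardiomyocyte marker level as a covariate, which itself differed by tumour, Slc27a1, Cd36, Acsl6, Ech1, Eci1, Eci2, Amacr, Scp2, Ucp2 and Acot1 lost their calls (edgeR adjusted p 0.242 for Slc27a1 to 0.936 for Cd36). Scp2 also lost its call after thinning (edgeR adjusted p = 0.0977).

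With REV-ERBα against GFP in tumour-bearing hearts no more than 2 genes of any of those lists passed, where 7.2% of all genes did. Acot1 fell (-0.92 ± 0.28, adjusted p = 0.0451), and Decr2, Tfam, Hibch and Dbt rose by 0.31, 0.21, 0.22 and 0.20. Each of these 5 lost its call on leaving out any 1 of between 11 (Decr2 and Hibch) and 25 (Dbt) of the 29 libraries. All 5 also lost their calls when only these 2 groups entered the fit (adjusted p 0.0561 to 0.0968). With the cardiomyocyte marker level as a covariate none of the 5 passed: Acot1 was at -0.18 ± 0.29 (edgeR adjusted p = 0.914), and Decr2, Tfam, Hibch and Dbt at 0.236, 0.138, 0.146 and 0.101 (adjusted p 0.581 to 0.727). The median of that level was 11.4 in C26_GFP and 11.6 in C26_REVERBa. Of the markers, Myh6 was higher (1 of 10 cardiomyocyte), C1qa and C1qb were lower (2 of 6 macrophage) and Pdgfra was lower (1 of 5 fibroblast), and their part in these differences was not tested beyond that.

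**Figure D5:**
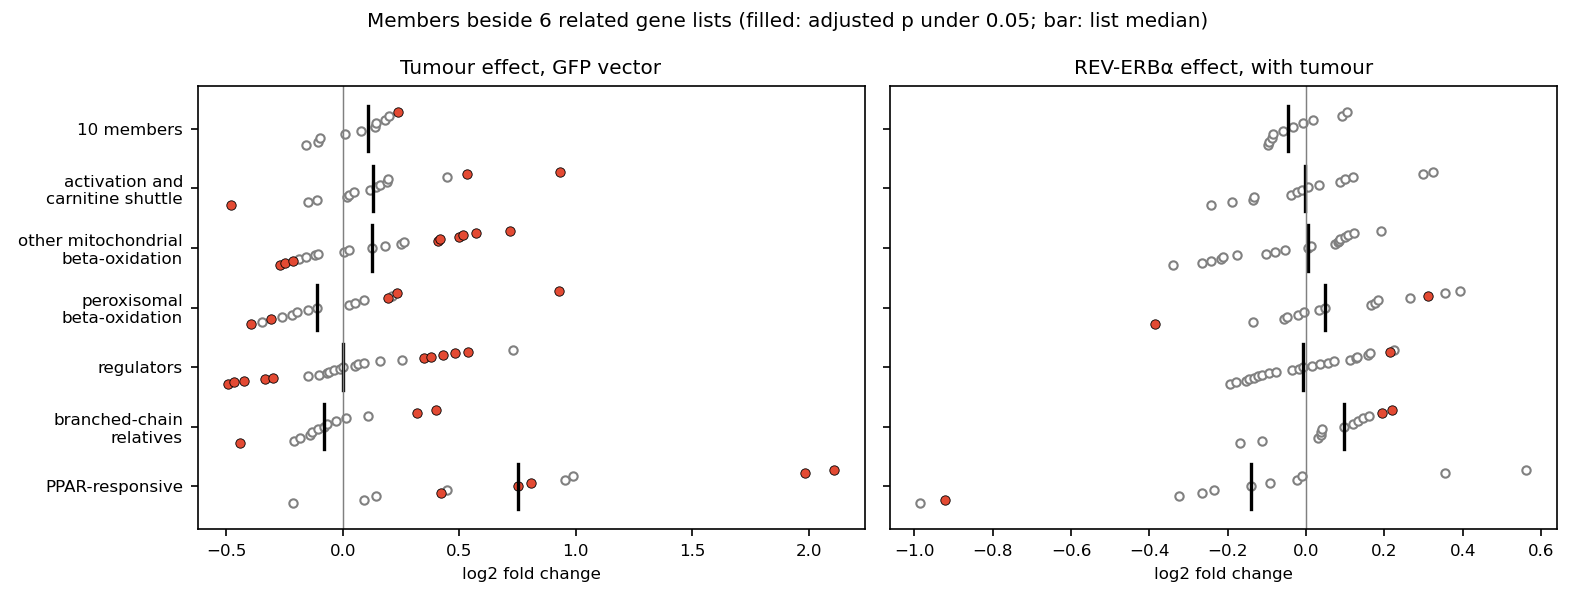
Log2 difference of single genes (points, filled where the adjusted p was under 0.05, black bars for list medians) in the lists around the 10 genes, for the tumour comparison in GFP hearts and the vector comparison in tumour-bearing hearts. The 10 genes spread from -0.158 to 0.235 in the tumour comparison, against -0.214 to 2.11 for the PPAR-responsive genes.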

How the data were processed

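The members and lists were chosen with earlier results of these data known. The values are raw counts for RefSeq genes, as deposited by the authors. STAR 2.4.2a, DESeq2 1.24.0 and mm10 appear in the submitters' processing notes with no roles, and neither a counting tool nor a strand setting is given in the sources used here. Libraries were made by a stranded kit without polyA selection from 50 to 100 ng of RNA out of about 200 mg of tissue, and read as 50 bp pairs, per the labels' protocols. File starts were raised by 1. Columns were matched to labels by name, and 1 per-sample column matching no sample was not used. Among 406 pairs of libraries none agreed within sampling noise (smallest chi-square 2.73 per degree of freedom).

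Genes were filtered with filterByExpr (minimum count 10, minimum total 15), scaled by TMM and fitted with edgeR 4.0.16 (R 4.3.3) by a quasi-likelihood model of 4 group means over all 29 libraries. Calls needed a Benjamini-Hochberg adjusted p under 0.05 over 12928 genes. Standard errors are the log2 fold change divided by the square root of F. Levels per length used the deposited count length. Correlations used log2 CPM (prior count 2) of genes with a mean of at least 5 CPM. The named genes were the 10 members, from each list up to 4 genes of smallest p in either of the first 2 comparisons, and the 6 most alike by each measure. Ppara, Ppard and Pparg were named after their values were seen. Of 96 list entries, 95 were tested, 2 of them under an older symbol. The procedure was tested on simulated data for the GFP tumour comparison (12833 genes): 71% of 100 genes changed 1.5-fold and 80% of 100 changed 2-fold were recovered with 5 false calls. No smaller changes were simulated, so these rates do not cover changes of the size estimated for the 10 members, such as the 1.18-fold of Hadha. Alternatives were other scaling, filters, thresholds and tools (DESeq2 1.42.0, limma 3.58.1 voom with sample weights), a replicate block, covariates, thinning and leaving out libraries; the one without libraries of high atrial score was chosen after seeing the data. Some list genes that the rule names are not reported here.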

Additional observations from a re-analysis of the deposited data

Results flagged for a closer look

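Hadh in C26_GFP replicate 6 was at 500.8 CPM, against 602 to 715 CPM in the other 9 hearts of the group, and this gap exceeded Dixon's 95% critical value for 10 samples. The 10 genes in 4 groups make 40 such tests, and chance flags about 1 in 20. The same heart was lowest for 9 of the 10 genes, as given above.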

How the results depend on the processing

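Of the 10 genes, Hadha alone passed, in the GFP tumour comparison, and the number passing there was 0 with upper quartile scaling, with only the groups compared in the fit, without the libraries above 10000000 counts, with the cardiomyocyte score as a covariate, after thinning and without libraries of an atrial score above 5. It was 2 with limma voom with sample weights (Acadl and Hadha) and with the replicate block (Acadvl and Hadha), and 3 at an adjusted p under 0.1 (Acadvl, Acads and Hadha). Leaving out each library gave 0 to 2. In every other comparison, and under every alternative run, none of the 10 passed.

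Counts of all genes moved by more than 1.5 times as follows. The GFP tumour comparison (3642) gave 1972 without the libraries above 10000000 counts and 137 with the cardiomyocyte score, which itself differed between these groups. The vector comparison with a tumour (931) gave 1772 with limma voom with sample weights, 291 with the block, 327 with only the groups compared, 6 with the cardiomyocyte score and 1709 at an adjusted p under 0.1. The vector comparison without a tumour (0) gave 1 with limma voom with sample weights and 1 with only the groups compared. The tumour comparison in REV-ERBα hearts (935) gave 450 with the block, 301 with the cardiomyocyte score and 1593 at an adjusted p under 0.1. The interaction (0) gave 9 with DESeq2 and 4 with limma voom with sample weights. Leaving out each library gave 2790 to 4138, 295 to 1778, 0 to 1, 476 to 1201 and 0 to 0 genes in the same order; the extremes were without PBS_GFP replicate 1 and C26_GFP replicate 6, C26_REVERBa replicates 7 and 9, C26_REVERBa replicate 9 for the 1 gene, and PBS_REVERBa replicate 5 and C26_REVERBa replicate 7.

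Directions of some differences changed; of those given here, Sirt3 in the GFP tumour comparison alone had been called. With upper quartile scaling Acadm became -0.003 in the GFP tumour comparison and 0.0102 in the vector comparison with a tumour, and Acadl 0.00338 in the interaction. With limma voom with sample weights Acadvl became 0.00198 in the interaction. With the replicate block Hadha became 0.0181 in the vector comparison without a tumour and Acads 0.0461 in the tumour comparison in REV-ERBα hearts. Without the libraries above 10000000 counts Hadh became -0.021 in the vector comparison with a tumour and Acaa2 -0.0259 in the interaction. With the cardiomyocyte score, in the GFP tumour comparison, Acadm became -0.0613, Hadhb -0.0217, Acaa2 -0.00696 and Etfdh 0.0461, Dbt became 0.00671, and Sirt3 became 0.0305. With the same score, Cpt2, Acadm, Hadhb and Sirt3 became 0.00928, 0.0275, 0.046 and -0.00144 in the vector comparison with a tumour, Acads 0.0105 in the tumour comparison in REV-ERBα hearts, and Acadl 0.0906 in the interaction. The cause was not tested. Leaving out single libraries changed a sign within these ranges: in the interaction Acaa2 -0.00487 to 0.121, Acadl -0.0444 to 0.0464 and Acadvl -0.0881 to 0.0622; with a tumour, by vector, Acadm -0.0416 to 0.0112 and Hadh -0.0175 to 0.0414; Acadm -0.00587 to 0.0443 in the GFP tumour comparison; Acads -0.0424 to 0.0142 and Hadh -0.0293 to 0.045 in the tumour comparison in REV-ERBα hearts; and Hadha -0.0711 to 0.0296 in the vector comparison without a tumour.

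Same-numbered libraries of different groups correlated at -0.44 to 0.332, with medians of -0.16 to 0.0291 by pair of groups. Correlations of differently numbered libraries are not given here, so these values alone do not settle whether the numbers pair the hearts. Each heart came from a separate animal, and the block is only a check. After thinning to the smallest total, Hadha was at 0.229 in the GFP tumour comparison (edgeR adjusted p = 0.0639).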

Other observations

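In C26_GFP replicate 6, genes outside the 10 were low as well. It was lowest of its group for 6 of 11 PPAR-responsive genes, 6 of 14 genes of activation and the carnitine shuttle (Cpt1a being in both counts) and 7 of 19 further mitochondrial genes. The same held for 5 of 13 branched-chain and related genes, 4 of 15 peroxisomal genes and 6 of 23 regulators, against 15.6% of all tested genes. Slc27a1 was at 389 CPM there and between 573 and 889 in the other 9 hearts, and Cd36 at 1290 against 1580 to 2280. The PBS_GFP means were 341 CPM for Slc27a1 and 1250 CPM for Cd36. Cardiomyocyte markers in this heart had a mean log2 CPM of 11.63, the highest of C26_GFP and within the PBS_GFP range (11.62 to 11.79). Its macrophage markers were at 5.179, above the PBS_GFP range (4.21 to 4.55), and its fibroblast markers at 7.324, above 6.98 to 7.28. Hadh (501 CPM) and Acads (157 CPM) lay below their PBS_GFP ranges (646 to 755 and 197 to 218.5 CPM). Of all 12928 tested genes, 2216 were highest of the group in this heart and 2018 lowest. The cause was not tested. Without that heart, Acadl joined Hadha among the called genes of the GFP tumour comparison, and 4138 genes passed in place of 3642.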
